A study of Mus musculus with 16 samples.

Results

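Mouse embryonic stem (ES) cells of clone 15 were compared with those of clone 10 before Rybp was removed from either. The comparison takes every array whose title gives clone 10 or 15 without 4-hydroxytamoxifen (OHT), which is 8 of the 16 arrays in the series. There were 4 arrays of clone 10 and 4 of clone 15, with 2 of each at day 4 and 2 at day 12, and the labels call these cells wild-type control. The other 8 arrays hold the same clones after 800 nM OHT for 24 hours, labelled Rybp-KO, and were used here as a separate set in which to read the same contrast. All 16 arrays share a 129/B6 hybrid background, and the conditional allele and the recombinase are not given in the sources used here. Each line is 1 clone, so a difference between them is one between these lines. Genotype and culture history cannot be told apart as its source. No label says that the numbered replicates came from separate cultures, and the p-values below measure the spread between arrays only, part of which may be technical. The medium held serum and leukaemia inhibitory factor. Cells grew on an irradiated fibroblast layer or on gelatin, and the labels do not tie either surface to an array.

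Rybp is a subunit of variant Polycomb repressive complex 1 (PRC1), which places ubiquitin on histone H2A and helps to keep developmental genes silent in ES cells. ES cells in serum hold a mixed pluripotent state in which naive genes such as Nanog and Zfp42 are active, while genes of the later, primed epiblast are low. A comparison of untreated clones gives the baseline against which the response of each clone to OHT is read.

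Arrays of both clones carried the profile of ES cells. Of 12 ES markers, 12 had a mean intensity of at least 200 in the brighter clone, from 2669 to 47619, and Pou5f1 read 11871 in clone 10 and 12048 in clone 15. The summed intensity of 12 fibroblast markers ranged from 1495 to 2145 on the clone 10 arrays and from 1223 to 2025 on those of clone 15. The summed intensity of 8 primitive endoderm markers ranged from 652 to 7825 and from 802 to 5544. Both ranges overlapped between the clones, and the part of these other cells in the results below was not tested. RNA integrity was read from the 3' probe set minus the 5' one of the transferrin receptor, which gave 1.17 ± 0.16 (SD, n = 4) on the log2 scale in clone 10 and 1.07 ± 0.08 in clone 15. The same measure for actin gave 0.49 ± 0.07 and 0.43 ± 0.02, and for Gapdh -0.32 ± 0.03 and -0.29 ± 0.05. For pyruvate carboxylase it spread more between arrays of a clone, from 0.50 to 1.47 in clone 10 and from 0.53 to 1.53 in clone 15. Arrays of different clones with the same day and replicate number correlated at 0.975 to 0.985 across genes, against 0.943 to 0.978 for replicates of 1 clone and day. Genes are not independent replicates in these correlations.

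The clearest baseline difference lay in 1 of the 2 probe sets that carry the symbol of the targeted gene. Limma called 2 of 18195 entries at an adjusted p under 0.05 (0.011%), 1 higher in clone 15 and 1 lower. The lower one was Rybp probe set 1428219_at. On clone 10 it read 2127 and 2771 at day 4 and 1404 and 2108 at day 12. On clone 15 it read 297 and 255 at day 4 and 157 and 170 at day 12. The highest clone 15 array lay far below the lowest clone 10 array, so the clones did not overlap. The log2 difference, clone 15 minus clone 10, was -3.27 ± 0.19 (SE, limma adjusted p = 0.0181). Its call was lost with day and replicate number as a block (limma adjusted p = 0.166) and in 8 of 8 fits without an array (0.0644 to 0.197), while the difference stayed between -3.37 and -3.12.

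The other Rybp probe set, 1421111_at, did not separate the clones. It read 2047, 3319, 2749 and 3434 on clone 10 and 2448, 3200, 2760 and 3170 on clone 15, in the order day 4 replicates 1 and 2 and day 12 replicates 1 and 2. The clones overlapped throughout, and the difference was 0.02 ± 0.21 with a 95% interval from -0.47 to 0.52 (limma adjusted p = 0.995). Both probe sets also carry the symbol of a Rybp pseudogene. The sources used here give neither the probes' sequences nor the exons that OHT removes, and which transcripts each probe set reads was not tested.

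After OHT the picture was different for each probe set. Probe set 1421111_at read between 85.0 and 255.7 on the 8 treated arrays, below the lowest untreated array of either clone. Probe set 1428219_at read 4443, 7612, 2815 and 4227 on treated clone 10 and 4374, 7580, 4606 and 5148 on treated clone 15. These treated arrays of the clones overlapped, and both lay above every untreated array. The treated difference was 0.24 ± 0.29 (limma adjusted p = 1). The difference between clones therefore changed with OHT by 3.51 ± 0.35 (limma interaction, adjusted p = 0.00795), the only entry of 18195 that passed this test (0.0055%).

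**Figure D1:**
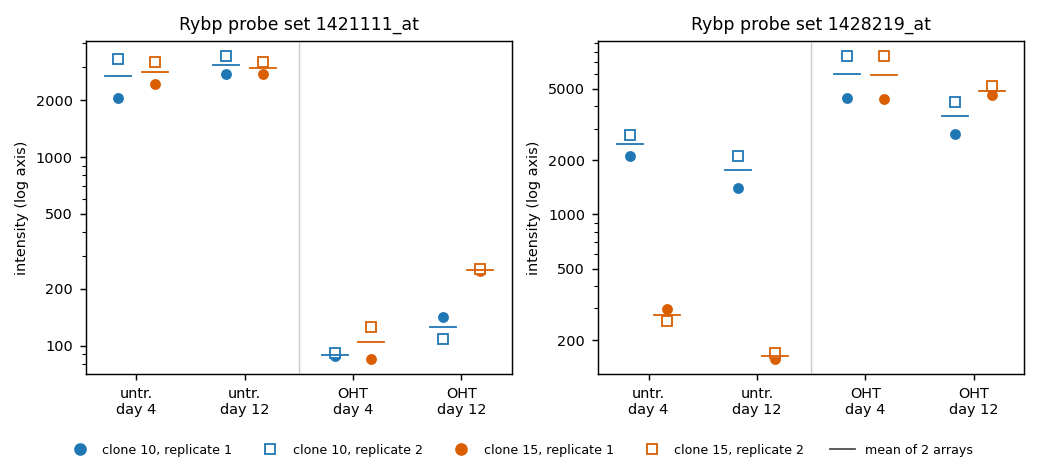
Intensity (log axis) of the 2 Rybp probe sets on each of the 16 arrays, by treatment and day, with clone 10 in blue and clone 15 in orange; short lines are means of 2 arrays. Untreated clone 15 sits at 157 to 297 for probe set 1428219_at, below untreated clone 10 at 1404 to 2771, while the clones overlap for probe set 1421111_at when untreated.

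The entry called higher was Mctp1, which encodes a membrane protein with calcium-binding C2 domains. It read 2.33, 3.30, 4.46 and 4.20 on clone 10 and 47.3, 33.8, 43.5 and 29.6 on clone 15, in the same order. The groups did not overlap, but every untreated array lay below 93.3, the median intensity of the table. The log2 difference was 3.45 ± 0.26 (limma adjusted p = 0.0467). With a floor at the 25th percentile of intensity, 28.3, the difference was 0.42 (limma adjusted p = 0.751). The call was also lost with the replicate block (limma adjusted p = 0.313) and in 8 of 8 fits without an array (0.0754 to 0.270). On treated arrays the clones overlapped, with a difference of -0.59 ± 0.97.

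At an unadjusted p under 0.05, 461 entries were higher (2.53%) and 403 lower (2.21%) in clone 15, or 4.75% in all. With the replicate block these counts were 872 and 914 (9.82%), and 0 entries passed the adjusted threshold. When limma was restricted to the 9097 entries above the median level, 8 passed (0.0879%), 5 higher and 3 lower. They were Tex15, Saraf, Dpys, Nipa1 and Pxk, higher in clone 15, and Zfp42, Vegfc and Rybp 1428219_at, lower. The difference of each of these 8 is the same in both fits, and only the number of entries tested and the estimated variances differ. With the spread pooled over all 16 arrays, 12 entries passed (0.066%), 7 higher and 5 lower, among them Tex15, Saraf, Dpys, Zfp42, Vegfc and Rybp 1428219_at. The rest, Cldn22, Dnah2, Gem, Krtap19-1, Rptn and Tex12, had means under 200 in both clones. Of these, Dnah2, Gem and Tex12 went from 2.41, 2.15 and 1.89 to 0.21, -0.32 and 0.15 on treated arrays. Krtap19-1, Rptn and Cldn22 went from 1.91, -1.93 and -1.65 to 1.16, -1.59 and -0.40. For genes with a mean of at least 200 in the brighter clone, the median 95% half-width of a difference was 0.44 on the log2 scale, or 1.36-fold. For dimmer genes it was 1.28.

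To describe the differences beyond the calls, the 30 genes with the smallest unadjusted p among genes of mean 200 or more, Rybp left aside, were taken after their values were seen. Of these, 17 read higher and 13 lower in clone 15, with limma adjusted p from 0.113 to 0.730, so none passed the test over all genes. The arrays of the clones did not overlap for 28 of the 30, against 2.82% of all genes of that level, as the choice of small p makes likely. The last gene taken, Epdr1, had an unadjusted p of 0.00357 and the next gene left out 0.00463. The treated arrays hold the same clones and were normalized together with the untreated ones, so they are not an independent set. A further reading came from these treated arrays, which took no part in the choice. There, 30 of 30 had the same sign, against 66.3% of all genes of that level, and 28 also had an unadjusted p under 0.05, against 1.85%. Limma called 0 of 18195 entries on the treated arrays alone (0%), with 786 at an unadjusted p under 0.05 (4.32%) and a smallest adjusted p of 0.0535. The exceptions among the 30 were Sphk2, at -0.06 on treated arrays, and Pygl, at 0.26.

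**Figure D2:**
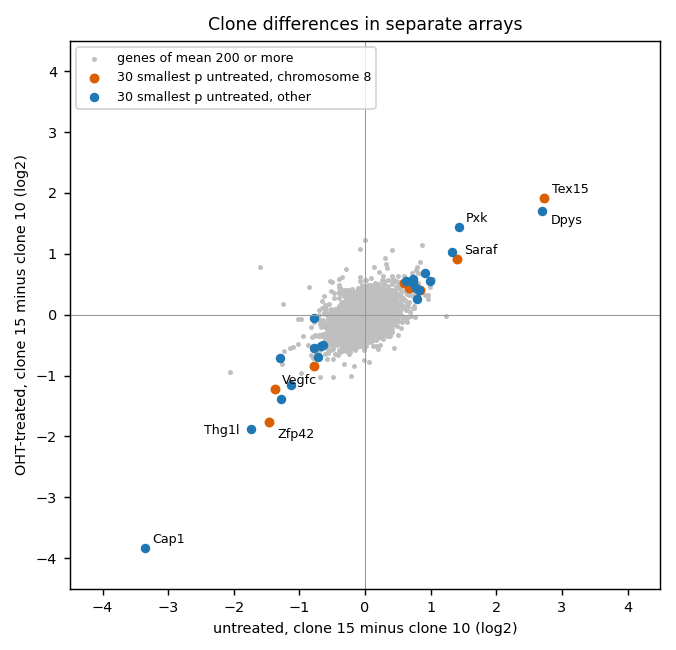
Log2 difference between clones on the untreated arrays (horizontal) against that on the OHT-treated arrays (vertical), for genes with a mean of at least 200 in the brighter untreated clone. The 30 genes chosen by their untreated p, 8 of them on chromosome 8 (orange), lie in the same quadrants on both axes, with Cap1 at -3.35 and -3.83 and Tex15 at 2.73 and 1.92.

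A fit with 1 clone term over all 16 arrays, added after the data were seen, called 35 genes (0.192%), 19 higher and 16 lower in clone 15. It holds 23 of the 30 genes above, but it includes the untreated arrays by which these were chosen, so the overlap is not separate evidence. This fit assumes that the clones differ alike with and without OHT, which fails for Rybp 1428219_at (-1.51, limma adjusted p = 0.551). Among its calls, the difference was smaller after OHT for Tex15 (change of -0.82 ± 0.31), Dpys (-0.99 ± 0.41) and Saraf (-0.49 ± 0.21). For Zfp42 it was larger in size (-0.30 ± 0.20). None of these changes passed the interaction test over all genes, which does not show that the assumption holds for them. Of the 35 calls, 12 lay on chromosome 8, which holds 932 of the 18195 entries, and 9 of these were higher and 3 lower.

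The largest cluster of neighbouring genes was on chromosome 8. Of 504 chromosome 8 genes with a mean of at least 200, 10 had an unadjusted p under 0.01 (1.98%). Over all entries of that level, including those without a chromosome, it was 53 of 9118 (0.581%). In the order of measured genes along the chromosome, 7 of the 10 stood between positions 207 and 288 of 932: Purg, Tex15, Saraf, Mtmr7, Frg1, Zfp42 and Vegfc. The rule for such a run, at least 3 genes of that p with no more than 60 measured genes from one to the next, was set after the values were seen. The median of all 504 genes was 0.04, against 0.01 over all entries of that level. Of the 7, the first 4 in this order read higher in clone 15 and the last 3 lower. Some genes of that level in this stretch, with a larger p and picked after their values were seen, went against this order. Prag1 and Leprotl1, at positions 225 and 216, read -0.76 and -0.36 (unadjusted p of 0.0231 and 0.0375), and Ufsp2 and Snx25, at 265 and 268, read 0.26 and 0.36 (0.198 and 0.0958).

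Tex15, a factor of male meiosis and of retrotransposon silencing in germ cells, read 244 and 144 at day 4 and 254 and 158 at day 12 on clone 10. On clone 15 it read 1595 and 1248, then 1339 and 1033. Every clone 15 array was above every clone 10 array, and the difference was 2.73 ± 0.26 (limma adjusted p = 0.113, and 0.00616 among genes above the median level). After OHT it was 1.92 ± 0.17, with clone 10 at 332 to 542 and clone 15 at 1535 to 1798. Tex15 is also a member of the germline list, described further on.

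Saraf encodes an endoplasmic reticulum protein that restrains store-operated calcium entry. It read 1148, 1005, 1397 and 1320 on clone 10 and 3308, 2550, 3985 and 3080 on clone 15, in the order of days and replicates used above. The clones did not overlap, at a difference of 1.40 ± 0.16 (limma adjusted p = 0.171, and 0.0115 among genes above the median level), which was 0.91 ± 0.16 after OHT. Purg, a nucleic acid binding protein gene next to Tex15 in the measured order, went from 274 ± 27.1 (SD, n = 4) in clone 10 to 488 ± 52.1 in clone 15, a difference of 0.83 ± 0.14. Mtmr7, a lipid phosphatase gene, read 1200 ± 106 and 1900 ± 116 (0.66 ± 0.12), and its other probe set read 1.33.

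Zfp42, also known as Rex1, is a zinc finger gene widely used as a marker of naive ES cells. It read 7318 and 9588 at day 4 and 7272 and 6486 at day 12 on clone 10, against 2659 and 2796, then 2801 and 2706, on clone 15. The clone 15 arrays were closely grouped and all lay below every clone 10 array. The difference was -1.47 ± 0.15 (limma adjusted p = 0.122, and 0.00813 among genes above the median level). After OHT clone 10 read 8154 to 9896 and clone 15 read 2289 to 3157, a difference of -1.77 ± 0.16. Zfp42 was still bright in clone 15, well above the median intensity of the table.

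Vegfc, a growth factor of lymphatic vessels, read 806, 661, 436 and 353 on clone 10 and 293, 232, 179 and 151 on clone 15. The lowest clone 10 array, at day 12, stayed above the highest clone 15 array, at day 4. The difference was -1.37 ± 0.17 (limma adjusted p = 0.211, and 0.0145 among genes above the median level), and its other probe sets read -1.82 and -0.64. After OHT it was -1.22 ± 0.23. Frg1, a nuclear gene named for a human muscular dystrophy region, read 2026 ± 156 in clone 10 and 1192 ± 234 in clone 15 (-0.79 ± 0.17).

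**Figure D3:**
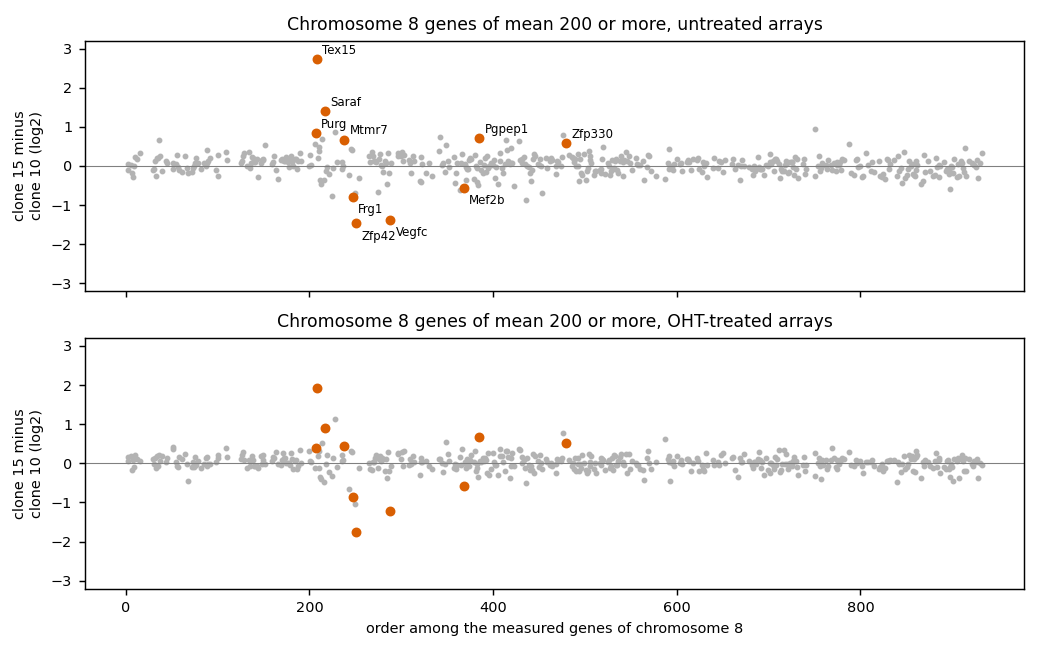
Log2 difference between clones for chromosome 8 genes of mean 200 or more, in the order of measured genes along the chromosome, on untreated arrays (top) and OHT-treated arrays (bottom); orange marks the 10 genes with an untreated p under 0.01. Of the run at positions 207 to 288, Purg, Tex15, Saraf and Mtmr7 lie above 0 and Frg1, Zfp42 and Vegfc below it, in both panels.

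The other chromosome 8 genes with an untreated p under 0.01 were Zfp330, Pgpep1 and Mef2b. Zfp330, a nucleolar zinc finger gene, read 2669 ± 177 and 4007 ± 291, at 0.59 ± 0.13. For Pgpep1, which removes pyroglutamate from peptides, the probe sets disagreed, at 0.71, 0.76 and -0.74. Dlc1, within the same stretch, was called by the 16-array clone term at 1.01 ± 0.15 (limma adjusted p = 0.0175). Its probe sets disagreed on untreated arrays too, at 0.87 and -0.87 for the 2 brighter ones.

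Promoter sequences were taken for 3 genes that read at least 2-fold lower in clone 15, so that the regions around the starts of Zfp42 and Vegfc, of the same run, can be set beside that of Cap1 from chromosome 4. They span 250 bases before to 50 after the start, from RefSeq on GRCm38.p6, and are reference sequence, not sequence of these clones. The letters ATGCAAAT, the octamer bound by POU factors such as Oct4, were searched on both strands, and capitals mark a match. Zfp42 is at chr8:43306960-43307259 on the minus strand, Vegfc at chr8:54077282-54077581 on the plus strand and Cap1 at chr4:122886027-122886326 on the minus strand.
Zfp42: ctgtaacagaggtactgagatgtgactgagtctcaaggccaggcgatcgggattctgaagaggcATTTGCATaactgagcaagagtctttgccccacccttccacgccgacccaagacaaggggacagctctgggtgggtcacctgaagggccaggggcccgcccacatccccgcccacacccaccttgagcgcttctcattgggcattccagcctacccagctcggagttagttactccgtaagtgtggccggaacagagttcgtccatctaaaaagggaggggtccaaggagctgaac
Vegfc: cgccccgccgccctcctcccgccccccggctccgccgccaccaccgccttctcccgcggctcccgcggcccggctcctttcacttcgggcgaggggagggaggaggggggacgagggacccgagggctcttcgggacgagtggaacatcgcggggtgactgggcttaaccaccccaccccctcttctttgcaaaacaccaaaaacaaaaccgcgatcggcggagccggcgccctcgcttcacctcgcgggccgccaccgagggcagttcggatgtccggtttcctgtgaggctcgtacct
Cap1: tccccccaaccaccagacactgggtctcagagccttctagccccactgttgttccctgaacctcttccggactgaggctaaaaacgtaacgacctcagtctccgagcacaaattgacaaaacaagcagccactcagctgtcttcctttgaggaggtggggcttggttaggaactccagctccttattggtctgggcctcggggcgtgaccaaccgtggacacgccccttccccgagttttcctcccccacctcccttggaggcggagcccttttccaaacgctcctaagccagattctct

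The Zfp42 window held the octamer once, read as ATTTGCAT and starting 186 bases before the start, whereas those of Vegfc and Cap1 did not hold these letters. Of 32851 promoters in the table, 1.74% held it on either strand. Of the 30 genes, 22 had a promoter there, and that of Zfp42 was the 1 with a match. The windows held 11, 35 and 11 CG dinucleotides for Zfp42, Vegfc and Cap1, against a median of 7.0 over all promoters. A match is a description of letters, and binding was not measured.

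A shorter run lay near the start of chromosome 14, where Abhd6, Rpp14, Pxk and 3830406C13Rik stood at positions 7, 8, 9 and 18 of 641. Pxk, a gene for a PX-domain protein related to kinases, read 116, 101, 156 and 101 on clone 10 and 318, 223, 354 and 385 on clone 15. The clones did not overlap, at 1.42 ± 0.21 (limma adjusted p = 0.411, and 0.0412 among genes above the median level), and the difference was 1.44 ± 0.32 after OHT. Abhd6, a lipase that breaks down monoacylglycerols, read 467 ± 21.5 and 720 ± 81.6 (0.62 ± 0.13), and its other probe set 0.53. Rpp14, a ribonuclease P subunit, read 0.74 ± 0.19, and 0.58 by its other probe set. In the opposite direction, 3830406C13Rik read 569 ± 144 in clone 10 and 264 ± 84.8 in clone 15 (-1.13 ± 0.24). Its dimmer probe sets read 0.33 and 1.03, from clone 10 means of 51.6 and 16.5.

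On chromosome 1 the run held Nuf2, Apoa2 and Casq1, each higher in clone 15. Nuf2, a kinetochore protein, read 1054 ± 134 and 1738 ± 177 (0.72 ± 0.13). Apoa2, an apolipoprotein of high-density lipoprotein, read 1394 ± 309 and 2647 ± 657 (0.92 ± 0.17). Casq1, a calcium-binding protein of muscle, read 124 ± 15.2 and 219 ± 29.7 (0.82 ± 0.16).

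The run on chromosome 7 was the widest, with 5 genes of mixed direction over 147 positions. Nipa1, a magnesium transporter gene, read 142, 149, 108 and 74.0 on clone 10 and 293, 372, 270 and 223 on clone 15. The clones did not overlap, at 1.32 ± 0.19 (limma adjusted p = 0.382, and 0.0386 among genes above the median level), and its other probe set read 1.25. Igf1r, the receptor for insulin-like growth factors, read 430, 352, 576 and 779 on clone 10 and 168, 189, 182 and 328 on clone 15, at -1.29 ± 0.24. Its lowest clone 10 array stayed above its highest clone 15 array, and the other 4 probe sets read from -1.95 to 0.03. Rlbp1, a retinoid-binding protein of the eye, read 0.73 ± 0.15, Fancf of the Fanconi anaemia DNA repair complex -0.64 ± 0.14 and the lipid kinase gene Sphk2 -0.79 ± 0.17. The other probe sets of Fancf read -0.03 and -0.18, and that of Sphk2 0.03. For Fancf the arrays of the clones overlapped.

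Several of the larger differences stood outside these runs. Cap1, which encodes a protein that speeds the turnover of actin filaments, read 1323 and 1781 at day 4 and 1612 and 1982 at day 12 on clone 10. On clone 15 it read 91.7 and 482, then 184 and 85.2. The clones did not overlap, although the clone 15 arrays spread widely, and the difference was -3.35 ± 0.57 (limma adjusted p = 0.458). Its other probe set read -3.79. After OHT the difference was -3.83 ± 0.49, with clone 10 at 1587 to 2274 and clone 15 at 75.1 to 384.

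Dpys, the dihydropyrimidinase of pyrimidine breakdown, read 383, 207, 249 and 193 on clone 10 and 2063, 1154, 2032 and 1361 on clone 15. Every clone 15 array was higher, at 2.69 ± 0.31 (limma adjusted p = 0.171, and 0.0115 among genes above the median level) and 1.70 ± 0.25 after OHT. Its 2 dimmer probe sets read -0.74 and -0.77, from clone 10 means of 34.5 and 68.9. Thg1l, which adds a guanine to histidine tRNA, read 366, 772, 516 and 570 on clone 10 and 111, 260, 177 and 130 on clone 15, at -1.74 ± 0.35. The groups did not overlap, but a dimmer probe set of Thg1l read 0.22. AI662270 read 778 ± 402 in clone 10 and 305 ± 128 in clone 15 (-1.28 ± 0.24), and its other probe set -1.07. It is 1 of the 2 genes among the 30 whose arrays overlapped.

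**Figure D4:**
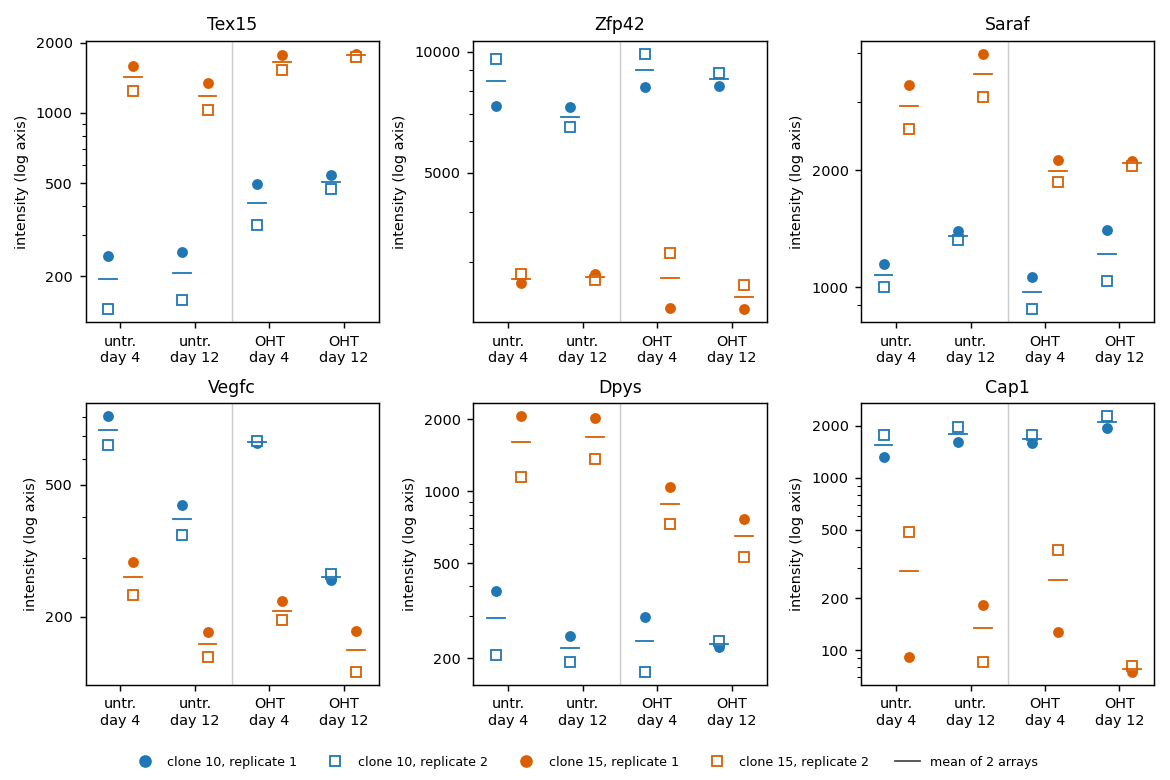
Intensity (log axis, scaled per panel) of 6 genes on each of the 16 arrays, by treatment and day, with clone 10 in blue and clone 15 in orange; short lines are means of 2 arrays. Untreated clone 15 lies above clone 10 for Tex15, Saraf and Dpys and below it for Zfp42, Vegfc and Cap1, without overlap over the 8 untreated arrays.

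The remaining genes of the 30 differed by less than 1.0 on the log2 scale. Higher in clone 15 were Tceanc2 (0.99 ± 0.19), Pygl, the liver glycogen phosphorylase (0.79 ± 0.17), Epdr1 (0.78 ± 0.18) and Tmem35b (0.73 ± 0.14). Lower were Ints6, an Integrator complex subunit (-0.78 ± 0.17), Pigo of glycolipid anchor synthesis (-0.71 ± 0.16) and 4930579G24Rik (-0.67 ± 0.13). The other probe sets of Ints6 read -0.11, -0.09 and 0.04, and those of Pigo 0.00 and -0.46. That of Tceanc2 read 0.12, and those of Epdr1 0.87 and 0.78. Over all genes of mean 200 or more, 7 were at least 2-fold higher and 16 at least 2-fold lower with the floor (0.252%). On treated arrays these counts were 5 and 10 (0.162%). In both sets 10 genes passed that size with the same sign, and 0 with opposite signs.

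Whether the clones differed alike at day 4 and day 12 was asked with an interaction of clone and day. Limma called 0 of 18195 entries (0%), with 630 at an unadjusted p under 0.05 (3.46%). For Tex15 the difference was 2.91 at day 4 and 2.55 at day 12, for Zfp42 -1.62 and -1.32, for Saraf 1.44 and 1.37 and for Cap1 -2.87 and -3.84. With 2 arrays per clone and day these values do not show that the days were alike.

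Among naive pluripotency genes, Zfp42 stood apart. Of 24 measured naive pluripotency genes, 0 passed limma over all genes and 1, Zfp42, had an unadjusted p under 0.05, against 4.75% of all entries. The median difference of the list was -0.14, against 0.01 over all genes. Nanog read 9028 and 9081 in clones 10 and 15, at 0.00. Klf2 read 4841 and 2727 (-0.86) and Gbx2 494 and 333 (-0.54), neither past an unadjusted p of 0.05. In the treated arrays the median of the list was -0.06.

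In the list of primed epiblast genes the median difference was -0.43, against 0.01 over all genes. Of 16 measured members, 0 passed over all genes, and 4 had an unadjusted p under 0.05, all 4 lower, against 2.21% of all entries. They were Dnmt3b, a de novo DNA methyltransferase (7683 ± 1659 and 5670 ± 607, -0.42 ± 0.15), Zic5 (1183 ± 319 and 823 ± 186, -0.51 ± 0.18), the POU factor gene Pou3f1 (689 ± 265 and 450 ± 185, -0.61 ± 0.23) and Fgf5 (48.9 ± 35.5 and 20.3 ± 12.1, -1.24 ± 0.48). Each had a limma adjusted p of 0.974. On treated arrays the median of the list was -0.13. In the FGF-ERK feedback list, genes switched on by FGF signalling, 3 of 23 had an unadjusted p under 0.05, all lower. These were Fgf5, Il17rd (-0.30 ± 0.12) and Spry4 (-0.47 ± 0.19), with a list median of -0.20, and -0.03 after OHT.

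The lists of Polycomb genes other than Rybp held 0 members past limma over all genes and 0 at an unadjusted p under 0.05. The shares of all entries were 0.011% and 4.75%, so for lists of this size 0 is near the background. The variant PRC1 list had 21 measured members and a median of -0.07, the canonical PRC1 list 11 and -0.21 and the PRC2 list 13 and -0.03. Yaf2, the close relative of Rybp, read 379 and 408 in clones 10 and 15 (0.14), Rnf2, the main H2A ubiquitin ligase, 4033 and 4610 (0.20), and Kdm2b, which brings variant PRC1 to CpG islands, 3143 and 2407 (-0.42). Ezh2, the PRC2 methyltransferase, read 5505 and 5899 (0.09). The median of all genes lay at 0.01.

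The germline and meiosis list held differences in both directions. Of 47 measured members, 0 passed over all genes, while 5 were higher and 4 lower at an unadjusted p under 0.05, against 2.53% and 2.21% of all entries. Tex15 and Zfp42 were the bright ones. Among dimmer members, Hormad2, a meiotic chromosome axis gene, read 35.0 ± 18.1 and 90.5 ± 22 (1.53 ± 0.45), Asz1 of the piRNA pathway 65.1 ± 15.5 and 114.8 ± 16.8 (0.84 ± 0.22) and Sycp1 of the synaptonemal complex 86.9 ± 11.9 and 55.2 ± 19.9 (-0.72 ± 0.29). After OHT these 3 read 0.31, -0.24 and -0.99. The median of the list was 0.17, and 0.04 after OHT.

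Of the lineage lists, those of Hox and mesoderm genes held a larger share of members at an unadjusted p under 0.05 than the 4.75% of all entries, and the others a smaller one. All of these members but Apoa1 had a mean under 200 in both clones. Of 33 measured Hox genes, 1 had a mean of at least 200, and 1 was higher and 3 lower at that threshold (12.1%). Hoxb6 had the smallest p of these, at 6.97 ± 2.11 and 31.2 ± 0.87 (2.22 ± 0.21, limma adjusted p = 0.113), but with the floor it read 0.14. The 3 lower were Hoxb9 (-1.93), Hoxc6 (-1.50, and -0.01 after OHT) and Hoxd10 (-1.17). In the mesoderm list 3 of 23 were past that threshold. Msgn1 read 83.9 ± 6.09 and 30.5 ± 13.7 (-1.57 ± 0.28) on untreated arrays and 1.23 on treated arrays. Isl1 read -1.27 ± 0.49, and 0.02 after OHT, and Snai2 0.54 ± 0.18, and -1.58 after OHT. In the ectoderm and neural list 1 of 26 was past it, Dlx5 (2.36 ± 0.54, and -0.17 after OHT). Of 32 primitive and visceral endoderm genes it was 1, Apoa1 (1.23 ± 0.45, and -0.02 after OHT), and the list median was -0.01. Of 19 trophectoderm genes it was 0, with a median of -0.05.

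Lists of general cell state had 0 to 2 members each at an unadjusted p under 0.05. Of 22 housekeeping genes, 16 heat shock chaperones, 26 genes of glycolysis and hypoxia, 20 of cholesterol synthesis and 36 of the interferon response, 0 had such a p, and their medians ran from 0.01 to 0.08. In the list of amino acid stress and transport 2 of 31 were lower (6.45%), the glycine transporter gene Slc6a9 (-0.43 ± 0.15) and Shmt2 of serine and glycine metabolism (-0.39 ± 0.14), and the list median was -0.11. Of 27 p53 targets and cell cycle inhibitors 2 were higher (7.41%), the death receptor genes Tnfrsf10b (0.61 ± 0.20) and Fas (1.54 ± 0.63, from means of 10.5 and 28.2), with a median of 0.05. Of 24 metallothionein and oxidative stress genes 1 was lower (4.17%), the catalase gene Cat (-0.50 ± 0.15), with a median of 0.06. The shares over all entries were 2.53% higher and 2.21% lower.

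In the list of DNA methylation and retroviral silencing, 3 of 29 were lower at that threshold (10.3%), against 2.21% of all entries. They were Zfp42, Dnmt3b and the histone methyltransferase gene Setdb1 (1555 ± 113 and 1246 ± 134, -0.32 ± 0.13). Zfp42 and Dnmt3b were already counted in other lists above. Of 49 imprinted genes 1 was higher and 2 lower (6.12%), which is near the 4.75% of all entries. The bright one of these was Ndn, at 404 ± 113 and 264 ± 50.5 (-0.59 ± 0.19, and -0.48 after OHT). Of 37 fibroblast feeder markers it was 0, against the same 4.75%, with a median of -0.10. In the lists of this paragraph and the 2 before it, 0 members passed limma over all genes.

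**Figure D5:**
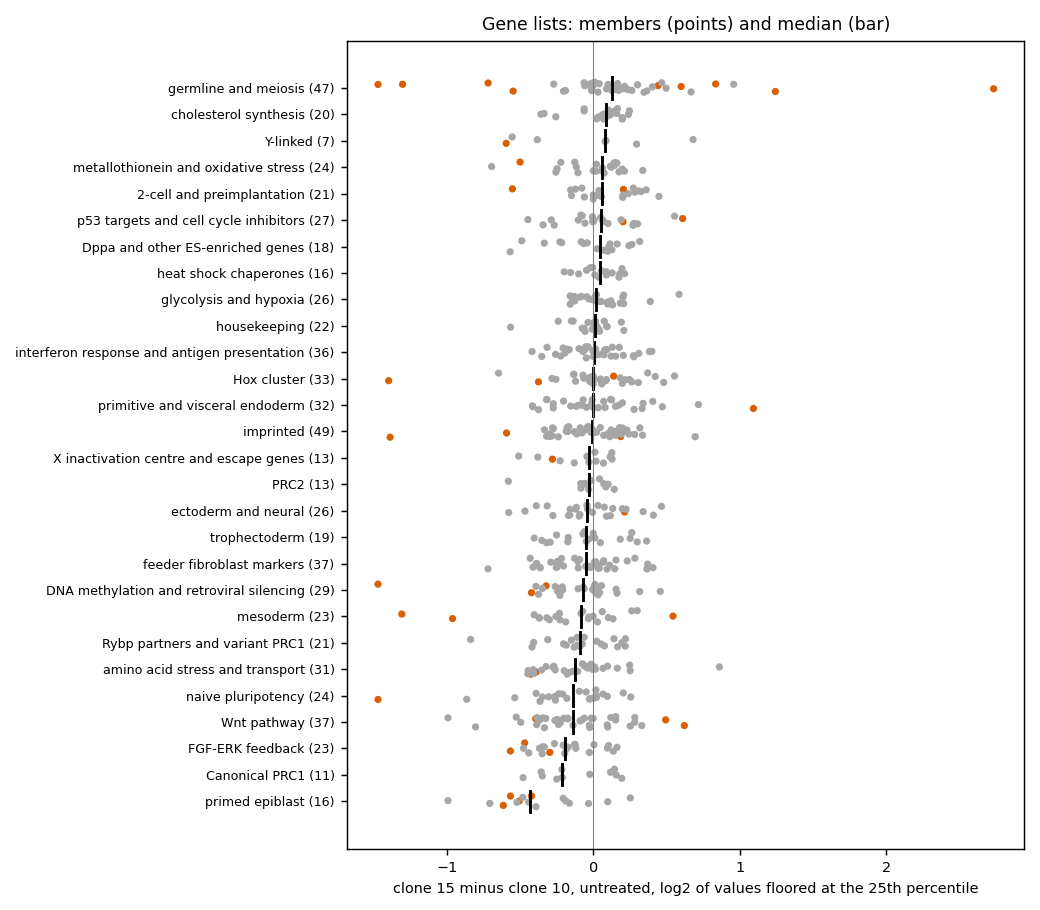
Log2 difference between clones on untreated arrays, with a floor at the 25th percentile of intensity, for the measured members of each of 28 gene lists (points, orange where the unadjusted p of the fit without that floor was under 0.05) and their median (bars). The number in brackets is the count of measured members. The primed epiblast list has the lowest median, -0.43, and Tex15 at 2.73 is the point farthest to the right.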

How the data were processed

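The authors' deposited table holds linear intensity values of 45101 probe sets on 16 arrays, although the labels' design text names the smaller 430A 2.0 array. The submitters' processing notes name RMA and Affymetrix Expression Console, without versions or settings. Every array holds the same set of values in a different order, so the arrays had been quantile-normalized together before deposit. The test had been planned for log2 values, so the intensities were log2-transformed with no offset. The probe set with the highest mean stood for each of 18193 genes, named through the platform annotation and RefSeq (GRCm38.p6, used here for names and gene order). The 2 Rybp probe sets were added as entries of their own.

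Clones were compared with limma 3.58.1 (R 4.3.3) on the 8 untreated arrays with day as a term, and calls were made at a Benjamini-Hochberg adjusted p under 0.05 over all 18195 entries. Errors are SE for log2 differences and SD (n = 4) for intensities. The same fit was made on treated arrays, and interactions with day and OHT were tested. The scripts were tested on simulated data. Deviations of same-numbered arrays of the clones correlated at 0.150 (day 4) and 0.0659 (day 12) over all entries, and at 0.811 and 0.609 over genes of mean 200 or more. The numbers were therefore taken as pairing the arrays, with the block as an alternative. The main fit has no block, and the SE, the choice of genes and the counts in lists come from it. The share of all entries at an unadjusted p under 0.05 was 4.75% in that fit and 9.82% with the block.

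Named genes were to be Rybp, the 14 largest increases and decreases past the threshold and the leading members of each list. Since 2 entries passed, the 30 genes and the runs of neighbours were described after their values were seen. The members, the lists and these rules were chosen with earlier results of these data known. Precision is limited by having 4 arrays per clone. The gene fit left out 932 probe sets with more than 1 symbol and 9160 without one.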

Additional observations from a re-analysis of the deposited data

Results flagged for a closer look

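Among 150 groups of 4 untreated arrays, over the genes the rules above name, 5 held an array far from the others, and chance flags about 1 in 20 such groups. All 5 lay in clone 15. Igf1r read 327.6 on day 12 replicate 2, against 189.3 on the next array, and Dlc1 read 4371 on day 4 replicate 1, against 2594. The day 4 replicate 2 array of clone 15 held the other 3. Lefty2 read 976.4 there, against 528.2 on the next array, 4930555G07Rik read 239.3 against 117.8, and Zfp750 was lowest at 55.8 against 91.3. The difference between clones in Rybp probe set 1428219_at changed with OHT by 3.51 on the log2 scale (limma interaction, adjusted p = 0.00795), as described above.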

How the results depend on the processing

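Limma called 1 gene higher and 1 lower in untreated clone 15. With the spread pooled over 16 arrays these counts were 7 and 5, above the median level 5 and 3, with an intensity trend 3 and 2, and with 1 clone term over 16 arrays 19 and 16. They were 0 and 0 with day and replicate number as a replicate block (872 and 914 at an unadjusted p under 0.05), for day 4 alone (402 and 347), for day 12 alone (401 and 511) and over all probe sets together (398 and 339). Genes higher were 0 with the floor (610 unadjusted), housekeeping centring (280) and every probe set with 1 symbol (419). Without each array in turn the counts ran from 0 to 0 for both directions (371 to 484 higher and 308 to 612 lower unadjusted). On treated arrays, 0 genes were called in either direction (376 and 410 unadjusted). Genes higher were 2 with 16 added and 1 above the median level or with the trend, and genes lower were 1 with 16 added or the pooled spread and 2 above the median level or with the trend. Leaving out an array gave 0 to 1 in each direction. The interaction with OHT gave 1 to 2 genes higher and 0 to 1 lower without an array, and that with day 0 to 0. Chromosome 8 genes at an unadjusted p under 0.01 numbered 10, and 21 with the block, 19 with the floor, 19 above the median level, 18 with the trend, 4 at day 4 alone, 5 at day 12 alone, 31 with the clone term and 7 to 12 without an array. Their share of all such genes ran from 10.2 to 80.0%, the latter from 4 of 5 genes at day 4. Signs reversed for Rybp probe set 1421111_at with housekeeping centring (-0.0427), at day 12 alone (-0.0550) and without an array (-0.13 to 0.148), for Hand1 at day 12 alone (0.24) and without an array (-1.19 to 0.0922), for Jpx without an array (-1.10 to 0.10) and for Hspa1a at day 12 alone (-0.14). The cause of these changes was not tested. Housekeeping centring moved all differences by -0.07. Of 84 list medians under the floor, centring or block, 73 moved by less than 1 SD over the 4 pairs of arrays and 11 by more.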
